A study of Mus musculus with 20 samples.

Results

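The transcription factors that set up and maintain macrophage identity were followed in macrophages of the mouse cranial dura mater, the outermost membrane around the brain. The 9 factors are PU.1 (gene Spi1), C/EBPα (Cebpa), c-Maf (Maf), ZEB2 (Zeb2), C/EBPβ (Cebpb), KLF2, KLF4 and KLF6 (Klf2, Klf4 and Klf6) and NR4A1 (Nr4a1). They were chosen by gene symbol from the 33243 genes of a raw count table, and all 9 passed the filter that left 16632 genes for testing (a total count of at least 10 over the libraries). Cells were dural CNS-associated macrophages (dCAMs), sorted by a CD45int CD11b+ CD206int-high gate from mice of genotype Ccr2creERT2/+ R26tdT/tdT.

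All mice had first lost their macrophages to BLZ945, an inhibitor of the receptor CSF1R, given at 200 mg per kg for 7 days. All received tamoxifen at 2 mg per day on the last of these days and again 2 and 4 days later. Tamoxifen activates a Cre recombinase expressed from the Ccr2 locus, so that cells with Ccr2 expression at that time, monocytes above all, and their progeny carry the red reporter tdTomato (tdT). The label depends on recombination at the time of tamoxifen. A tdT- cell may thus also descend from a cell that expressed Ccr2 but did not recombine, or that expressed it only later. After 8 weeks, lipopolysaccharide (LPS), a cell wall component of bacteria, was injected into 5 mice at 2.5 mg per kg, and 5 mice received PBS (CTL), and the dura was taken 12 h later; the age of the mice is not given in the labels. Each mouse gave 1 tdT+ and 1 tdT- library, which makes 20 libraries in 4 groups of 5. Values per mouse are listed in the order 174, 175, 177, 178, 179 for CTL and 54, 56, 59, 60, 61 for LPS.

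These factors act at different steps. PU.1 and C/EBPα are the lineage-determining factors of myeloid cells: they open chromatin at macrophage enhancers, and PU.1 drives Csf1r. c-Maf acts late, in differentiated macrophages, where it restrains self-renewal and switches on genes of the resident program such as those for complement C1q. ZEB2 preserves the identity of tissue macrophages. C/EBPβ, the KLF factors and NR4A1 respond to signals: C/EBPβ drives acute phase and inflammatory genes, KLF2 and KLF4 hold back NF-κB signaling in myeloid cells, KLF6 favors it, and NR4A1, an orphan nuclear receptor transcribed as an immediate early gene, is needed for Ly6C-low monocytes and dampens inflammation.

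The sequences upstream of Nr4a1 and Klf2, whose RNA fell under LPS in tdT- dCAMs, are shown beside those of Cebpb and Klf6, the most abundant of the factors that were called in no contrast. Each runs 5′ to 3′ on the strand of the gene, from 250 bases before to 50 bases after a RefSeq transcription start on GRCm38.p6. The windows are chr15:101266596-101266895 (+) for Nr4a1, chr8:72318812-72319111 (+) for Klf2, chr2:167688665-167688964 (+) for Cebpb and chr13:5861239-5861538 (+) for Klf6. Capitals mark TGACG or its reverse complement CGTCA, the core of the site that cAMP-responsive CREB factors bind.
Nr4a1: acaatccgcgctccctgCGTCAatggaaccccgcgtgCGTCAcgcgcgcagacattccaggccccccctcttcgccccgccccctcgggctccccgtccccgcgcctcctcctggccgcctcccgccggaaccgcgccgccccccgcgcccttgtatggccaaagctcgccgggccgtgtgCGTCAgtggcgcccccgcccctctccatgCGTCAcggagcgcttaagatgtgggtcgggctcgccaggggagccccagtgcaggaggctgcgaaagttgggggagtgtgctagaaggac
Klf2: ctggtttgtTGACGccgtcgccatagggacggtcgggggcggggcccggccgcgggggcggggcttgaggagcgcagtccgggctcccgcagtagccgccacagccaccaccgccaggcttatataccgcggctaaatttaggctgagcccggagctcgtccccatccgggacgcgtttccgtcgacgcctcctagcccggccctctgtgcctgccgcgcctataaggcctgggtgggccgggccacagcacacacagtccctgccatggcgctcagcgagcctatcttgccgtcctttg
Cebpb: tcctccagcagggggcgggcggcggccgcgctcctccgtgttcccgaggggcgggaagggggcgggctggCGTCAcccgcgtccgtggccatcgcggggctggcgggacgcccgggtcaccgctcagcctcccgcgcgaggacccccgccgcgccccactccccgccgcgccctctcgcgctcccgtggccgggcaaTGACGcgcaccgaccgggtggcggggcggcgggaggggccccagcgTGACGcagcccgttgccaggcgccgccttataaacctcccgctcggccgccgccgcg
Klf6: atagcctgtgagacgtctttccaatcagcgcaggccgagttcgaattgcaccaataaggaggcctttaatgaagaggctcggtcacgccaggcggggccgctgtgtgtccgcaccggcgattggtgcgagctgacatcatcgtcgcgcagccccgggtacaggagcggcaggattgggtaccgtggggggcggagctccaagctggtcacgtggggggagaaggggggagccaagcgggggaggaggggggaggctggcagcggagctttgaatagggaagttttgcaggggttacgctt

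The Nr4a1 window held TGACG 4 times, each time on the reverse strand, at positions between -233 and -40 from the start. The Cebpb window held it 3 times and the Klf2 window once, at -241, while these letters were not found in the Klf6 window. Klf4 and 2 overlapping Zeb2 windows held it once. Of all 32851 RefSeq promoter windows of this length, 20.8% held TGACG on either strand, 1.03% held it 3 or more times and 0.231% held it 4 or more times. The full palindrome TGACGTCA, which contains TGACG and was present in 1.79% of windows, was found in none of the windows matched to the factors. Windows of 7 of the 9 factors were matched by symbol, 10 in all because Zeb2 has 4 starts. No window was available for Spi1 and Maf, so no motif was looked for there. The box GGGCGG (35.7% of all windows) occurred 5 times at Cebpb, 4 times at Klf4, 3 times at Nr4a1, 2 times at Klf2, 1 time at Klf6 and in 3 of the 4 Zeb2 windows, and not at Cebpa. CCAAT (37.4%) occurred 4 times at Klf6 and 2 times in 1 Zeb2 window, and TATAA (24.9%) 2 times each at Cebpb, Klf2, Klf4 and 2 overlapping Zeb2 windows and 1 time at Cebpa. These counts take both strands, and the 2 at Cebpb overlap in 1 site. CACCC, the core bound by KLF factors (57.5% of windows), occurred 3 times in 1 Zeb2 window and 1 time in another, 2 times each at Cebpa and Cebpb and 1 time at Klf2. The C/EBP motif TTGCGNAA (0.798%), the PU.1 motif GAGGAAGT (3.20%) and the CArG box (1.63%) were in none of these windows.

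Library totals ran with treatment, from 6017650 to 12208203 counts in CTL and from 12073566 to 18925908 counts in LPS libraries. The tdT- CTL libraries had 6671 to 9365 genes at 10 or more counts, and all other libraries had 10024 to 11987. The lowest count of any of the 9 factors in a library was 19, for Cebpa. Macrophage markers were present in every group: all 10 genes of the list exceeded 3 counts in at least 1 library of each group. Their summed level was 17451 to 30617 CPM in tdT- CTL libraries and 30543 to 31634 CPM in tdT+ CTL libraries (CPM, the count relative to the library's total, with TMM scaling), against 9036 to 11253 CPM in tdT- LPS and 10928 to 14006 CPM in tdT+ LPS libraries. A pair of tdT- CTL libraries stood apart. That of mouse 179 carried 3993 CPM of the 5 fibroblast markers, against 10.9 to 876 CPM in the other tdT- CTL libraries, and that of mouse 174 carried 3329 CPM of the 5 dendritic cell markers, against 618 to 1230 CPM. Markers of other cells also moved with LPS. The 6 neutrophil markers summed to 46.9 to 181 CPM in tdT- CTL and 351 to 1004 CPM in tdT- LPS libraries, and to 83.8 to 195 CPM in tdT+ CTL and 304 to 854 CPM in tdT+ LPS libraries; Ly6g and Cxcr2 were at or under 3 counts in each library of all groups but tdT- LPS. The dendritic cell markers were at 262 to 638 CPM in tdT- LPS libraries, and at 48.2 to 77.0 CPM in tdT+ CTL and 11.4 to 52.4 CPM in tdT+ LPS libraries; Xcr1 was at or under 3 counts in each library. The part of these cells in the LPS results was not tested. Bulk RNA does not tell fewer cells of a type from less RNA per cell. For Klf10 and for all of the 9 factors but Klf6, the LPS result in tdT- dCAMs is also given without 1 or both of the tdT- CTL libraries of mice 174 and 179. The difference between populations in CTL mice is given in this way for Cebpa and Nr4a1. Most other values include both libraries.

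Relative to exon length, the factors spanned a wide range in dCAMs. Mean levels per kb of exon (GENCODE M21) in tdT- CTL libraries were 536 ± 315 CPM per kb for Cebpb and 514 ± 163 for Nr4a1 (SD, n = 5), and these leading factors did not separate: Cebpb lay above Nr4a1 in 3 of 5 libraries. Klf2 (244 ± 62.1), Klf6 (189 ± 27.0) and Spi1 (121 ± 19.7) followed, then Maf (51.6 ± 17.8), Klf4 (28.0 ± 15.8), Cebpa (24.5 ± 15.6) and Zeb2 (15.9 ± 6.61). Ranges of neighbors were separate between Nr4a1 and Klf2, between Klf6 and Spi1 and between Spi1 and Maf, and the last 4 overlapped from each to the next. Under LPS the order changed in the middle of the list. In tdT- LPS libraries Cebpb led alone (706 ± 89.5 CPM per kb), Nr4a1 (225 ± 69.9), Spi1 (200 ± 15.01) and Klf6 (175 ± 21.5) overlapped from each to the next, Klf2 came next (108 ± 28.1), and Maf (14.4 ± 3.32) stood beside Zeb2 (13.0 ± 1.84) at the end.

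**Figure D1:**
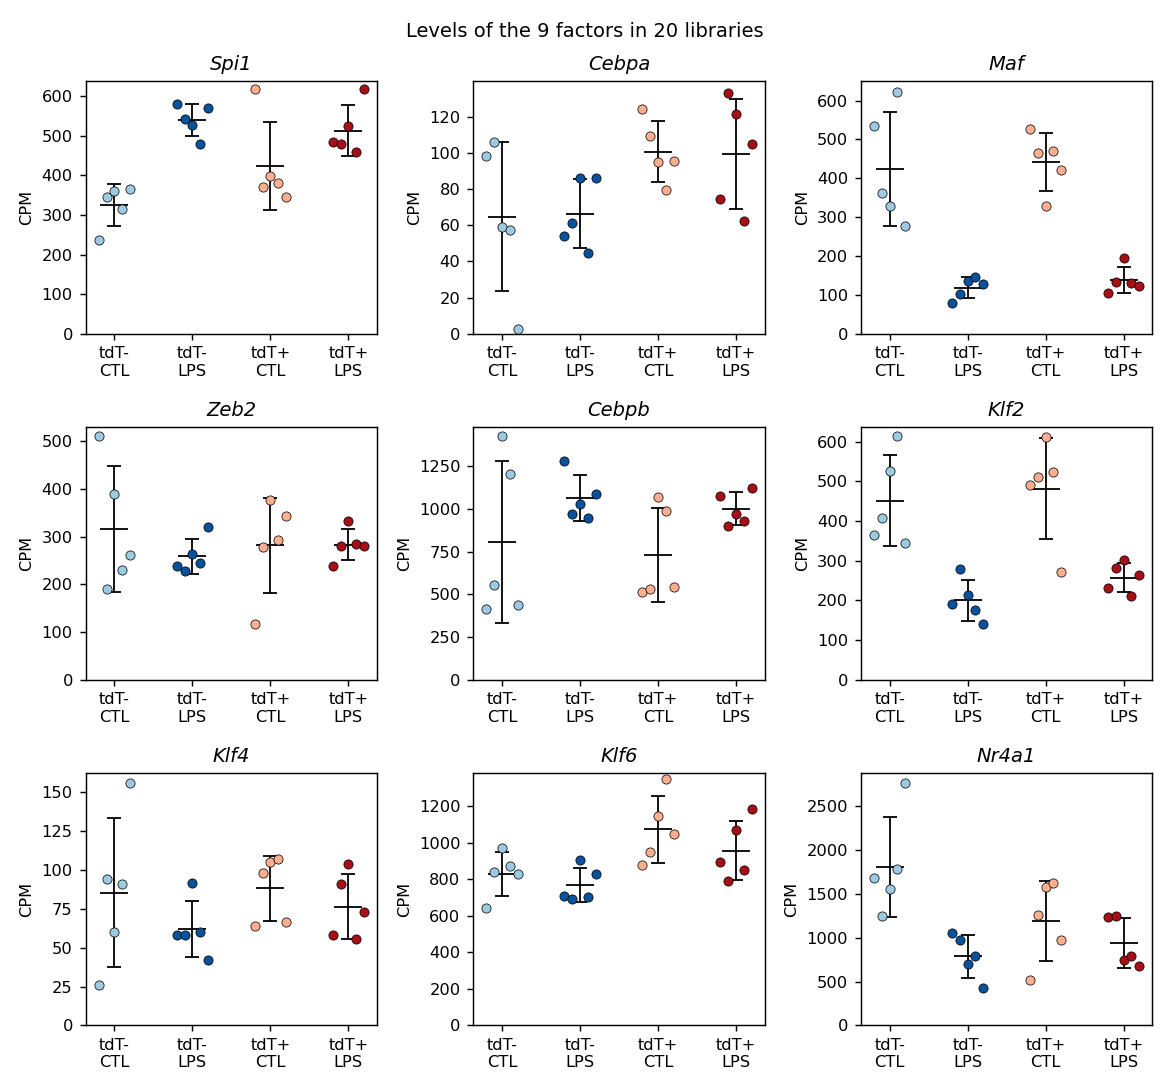
Level of each factor in CPM (TMM-scaled) in the 20 libraries; points are libraries in order of mouse number, bars mark the mean and the SD of 5. Maf separates LPS from CTL in both populations, from 278 to 623 CPM in CTL down to 78.0 to 195 CPM under LPS, and 1 tdT- CTL library lies at 2.49 CPM for Cebpa.

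The question of the LPS comparison is how repopulated dCAMs with and without the label respond to systemic endotoxin. Of the 9 factors, Maf, Klf2 and Nr4a1 fell in tdT- dCAMs and Maf fell in tdT+ dCAMs. The threshold was a Benjamini-Hochberg adjusted p under 0.05 over all genes in edgeR's quasi-likelihood test and a log2 fold change beyond 1 in size. Among all 16632 genes, 4.27% passed as lower and 7.2% as higher under LPS in tdT- dCAMs, beside 3 and 0 of the 9 factors. At an unadjusted p under 0.05 in edgeR, 3 of the 9 were lower and 1 higher, beside 5015 of the 16632 genes in either direction. In tdT+ dCAMs 2.52% passed as lower and 3.37% as higher, beside 1 and 0 of the 9. At an unadjusted p under 0.05 in edgeR, 2 of the 9 were lower and 0 higher, beside 3264 of the 16632 genes in either direction. DESeq2 also called 3 and 1 factors, all lower, beside 2843 and 1545 of all genes in either direction. The median log2 fold change of the factors was -0.29 in tdT- and -0.17 in tdT+ dCAMs, and that of all genes tested was 0.02 and 0.01. For the 5823 genes at a mean log2 CPM of 4 or more it was -0.01 and 0.12. LPS and CTL libraries did not overlap for 4 factors in tdT- dCAMs (Spi1, Maf, Klf2 and Nr4a1) and for 1 in tdT+ dCAMs (Maf), where 12.6% and 17.8% of all genes had separate groups. Without the tdT- CTL libraries of mice 174 and 179, the log2 fold change in tdT- dCAMs was -1.90 for Maf, -1.38 for Klf2, -0.97 for Nr4a1, 0.65 for Spi1, -0.41 for Klf4, -0.07 for Zeb2 and -0.01 for Cebpb, so that Nr4a1 alone changed its call among these. Both mice have sample titles that begin with F, and in CTL mice Cebpb and Klf2 split by this letter, as described below. The part of this letter in the shifts of Cebpb and Klf2 was not tested.

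**Figure D2:**
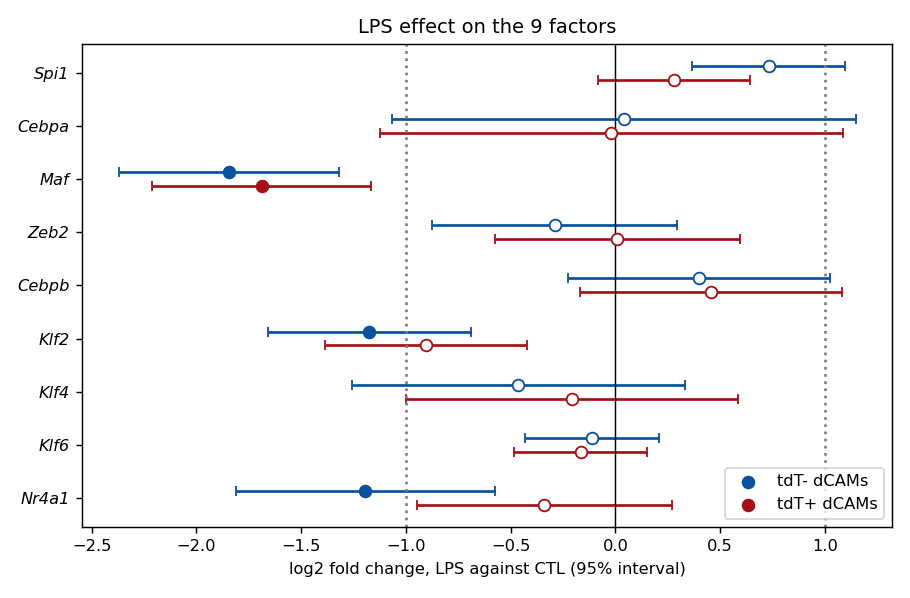
Log2 fold change of each factor, LPS against CTL, in tdT- (blue) and tdT+ (red) dCAMs with its 95% interval from the joint fit; filled points passed the threshold and dotted lines mark a log2 fold change of 1 in size. Maf lies beyond the line in both populations, at -1.84 and -1.69, and Klf2 (-1.17) and Nr4a1 (-1.19) do so in tdT- dCAMs.

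Among the lineage-determining factors, Spi1 was higher under LPS in tdT- dCAMs by less than the fold threshold. Spi1 stood at 237, 346, 362, 316 and 366 CPM in tdT- CTL libraries and at 581, 542, 527, 479 and 570 CPM in tdT- LPS libraries. The groups did not overlap, and the log2 fold change was 0.73 ± 0.18 (SE; edgeR adjusted p = 0.00768). Spi1 was the only one of the 9 factors with a higher level at an adjusted p under 0.05 whatever the fold in tdT- dCAMs, a rule that 7.67% of all genes met. With limma-voom quality weights it missed this rule (limma adjusted p = 0.0678). In tdT+ dCAMs Spi1 was at 619, 370, 398, 382 and 347 CPM in CTL and at 484, 479, 524, 460 and 619 CPM under LPS, groups that overlapped through the high CTL library of mouse 174 (log2 fold change 0.28 ± 0.17, edgeR adjusted p = 0.431). Here the limma adjusted p was 0.0330 with quality weights and 0.0364 with the replicate block by voom, at log2 fold changes of 0.36 and 0.43. The LPS effects differed between populations by -0.45 ± 0.25 on the log2 scale, which the test did not call (edgeR adjusted p = 0.475). The gene spans chr2:91082390-91115756 (+) in GENCODE M21 on GRCm38.

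Cebpa passed no LPS test. It was at 98.2, 106, 59.0, 57.5 and 2.49 CPM in tdT- CTL libraries, where the lowest value, that of mouse 179, comes from the library with the fibroblast markers. Under LPS it was at 54.3, 61.1, 86.2, 44.7 and 86.1 CPM, within the range of the CTL libraries. The log2 fold change was 0.04 ± 0.53 (edgeR adjusted p = 0.989) and turned to -0.27 ± 0.30 without the library of mouse 179 (edgeR adjusted p = 0.577). In tdT+ dCAMs Cebpa was at 124, 109, 94.9, 79.6 and 95.7 CPM in CTL and at 74.3, 133, 122, 62.3 and 105 CPM under LPS, with a log2 fold change of -0.02 ± 0.53 (edgeR adjusted p = 1.0). The 95% interval of this change, from -1.13 to 1.09, leaves room for a change past the threshold in either direction. Cebpa lies at chr7:35119293-35121928 (+).

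Maf fell more than any other of the 9 factors in both populations. It was at 534, 362, 328, 623 and 278 CPM in tdT- CTL libraries and at 78.0, 104, 136, 145 and 129 CPM in tdT- LPS libraries. The highest LPS library lay below the lowest CTL library, and the fit gave a 3.59-fold lower level (log2 fold change -1.84 ± 0.25, edgeR adjusted p = 3.6e-05). In tdT+ dCAMs Maf was at 528, 464, 328, 470 and 423 CPM in CTL and at 106, 133, 195, 130 and 124 CPM under LPS. These groups did not overlap either, with a 3.22-fold lower level under LPS (log2 fold change -1.69 ± 0.25, edgeR adjusted p = 1.0e-04). The LPS effects of the populations differed by 0.16 ± 0.35, with a 95% interval from -0.56 to 0.88 (edgeR adjusted p = 1.0). Maf occupies chr8:115682942-115707794 (-).

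Zeb2 passed no LPS test. It was at 510, 190, 390, 229 and 262 CPM in tdT- CTL libraries and at 238, 228, 264, 245 and 320 CPM under LPS (log2 fold change -0.29 ± 0.28, edgeR adjusted p = 0.524). In tdT+ dCAMs it was at 117, 279, 376, 292 and 343 CPM in CTL and at 238, 280, 332, 285 and 281 CPM under LPS (0.01 ± 0.28, edgeR adjusted p = 1.0). The LPS libraries were close to each other (coefficients of variation of 14.2% and 11.8%), while the CTL libraries spread widely (41.7% and 35.5%). Mouse 174 held both the highest tdT- and the lowest tdT+ value of the CTL mice. Zeb2 spans chr2:44983632-45117395 (-), and 662 of its exon bases overlap other annotated genes, among them the antisense Zeb2os; the library kit does not mark strand.

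Of the signal-responsive factors, Cebpb showed no call but a split among CTL mice. It was at 411, 552, 1425, 1203 and 439 CPM in tdT- CTL libraries and at 515, 530, 1068, 990 and 543 CPM in tdT+ CTL libraries. In both populations mice 177 and 178 were high, and these are the CTL mice whose sample titles begin with M, while the others begin with F. Under LPS all libraries were high, at 1282, 969, 1025, 945 and 1087 CPM in tdT- and 1077, 901, 971, 929 and 1124 CPM in tdT+ libraries. The log2 fold change was 0.40 ± 0.30 in tdT- (edgeR adjusted p = 0.392) and 0.46 ± 0.30 in tdT+ dCAMs (edgeR adjusted p = 0.467). The M libraries ranged from 990 to 1425 CPM and the F libraries from 411 to 552 CPM in CTL mice, against 929 to 1124 and 901 to 1282 CPM in LPS mice. With 2 M and 3 F mice in CTL no exact test of this split can reach 0.05, and it was picked out after the values had been seen. Of 5823 genes at a mean log2 CPM of 4 or more, 0.945% had M and F libraries of CTL mice that did not overlap, and Cebpb and Klf2 were among them. Cebpb, an intronless gene at chr2:167688915-167690418 (+), shares 312 exon bases with the opposite-strand gene Tmem189 in GENCODE M21.

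Klf2 fell in tdT- dCAMs and was lower by slightly less than the fold threshold in tdT+ dCAMs. It was at 364, 407, 525, 613 and 345 CPM in tdT- CTL libraries and at 191, 279, 214, 176 and 139 CPM in tdT- LPS libraries, with no overlap. This was a 2.26-fold lower level (log2 fold change -1.17 ± 0.23, edgeR adjusted p = 0.00172). In tdT+ dCAMs Klf2 was at 491, 512, 610, 523 and 271 CPM in CTL and at 232, 281, 300, 210 and 264 CPM under LPS, groups that overlapped through the CTL library of mouse 179. The log2 fold change was -0.90 ± 0.23 (edgeR adjusted p = 0.0188). Maf and Klf2 were thus the 2 factors with a lower level at an adjusted p under 0.05 whatever the fold in tdT+ dCAMs, a rule that 2.83% of all genes met. Without mouse 179 the change was -1.05 and passed the threshold. The LPS effects differed by 0.27 ± 0.33, with a 95% interval from -0.41 to 0.95 (edgeR adjusted p = 0.938). Klf2 lies at chr8:72319033-72321656 (+).

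Klf4 and Klf6 passed no LPS test. Klf4 ranged from 26.1 to 156 CPM in tdT- CTL and from 41.9 to 91.7 CPM in tdT- LPS libraries (log2 fold change -0.46 ± 0.38, edgeR adjusted p = 0.436), with its extremes in the libraries of mice 174 and 179. In tdT+ dCAMs it ranged from 63.6 to 107 CPM in CTL and from 55.4 to 104 CPM under LPS (-0.21 ± 0.38, edgeR adjusted p = 0.891). Klf6 had the smallest standard errors of the 9 factors. It was at 642, 838, 969, 871 and 828 CPM in tdT- CTL and at 709, 694, 904, 702 and 829 CPM in tdT- LPS libraries (-0.11 ± 0.15, edgeR adjusted p = 0.670). The 95% interval, from -0.43 to 0.21, excludes a change past the fold threshold for Klf6 in tdT- dCAMs, and so does that in tdT+ dCAMs, from -0.48 to 0.15 (log2 fold change -0.17 ± 0.15, edgeR adjusted p = 0.660). Klf4 lies at chr4:55527143-55532466 (-) and Klf6 at chr13:5861482-5870394 (+).

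Nr4a1 fell in tdT- dCAMs. It was at 1678, 1248, 1551, 1779 and 2765 CPM in tdT- CTL libraries and at 1058, 969, 698, 789 and 432 CPM in tdT- LPS libraries. The groups did not overlap, and the level was 2.29-fold lower (log2 fold change -1.19 ± 0.30, edgeR adjusted p = 0.00975). The highest CTL value is that of mouse 179, whose library carried the fibroblast markers. Without this library the log2 fold change was -0.99 ± 0.29 (edgeR adjusted p = 0.0289), just under the fold threshold. In tdT+ dCAMs Nr4a1 was at 518, 1254, 1575, 1624 and 969 CPM in CTL and at 1234, 1252, 745, 789 and 672 CPM under LPS, groups that overlapped (log2 fold change -0.34 ± 0.29, edgeR adjusted p = 0.622). The LPS effects of the populations differed by 0.85 ± 0.41, with a 95% interval from -0.01 to 1.71; the test did not call this difference (unadjusted p = 0.0520, edgeR adjusted p = 0.388). Nr4a1 occupies chr15:101254269-101274795 (+), and the promoter window shown belongs to a start inside this span.

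Immediate early genes respond within minutes to stimuli that include tissue dissociation, and heat shock chaperones respond to it as well. A list of 16 genes sensitive to dissociation, none of them among the 9 factors, holds 13 immediate early genes (Fos, Jun, Egr1, Atf3 and others) and 3 chaperones. Under LPS 8 of the 16 were lower past the threshold in tdT- dCAMs, namely 6 immediate early genes (Atf3, Btg2, Egr1, Ier2, Jun and Junb) and the chaperones Hspa1a and Hspa1b. In tdT+ dCAMs 3 were lower, Atf3 and the same chaperones. Of all genes 4.27% and 2.52% were lower, and the called genes are named here after their values were seen. The list's median log2 fold change was -1.02 in tdT- and -0.63 in tdT+ dCAMs. Its summed level was 31961 to 36931 CPM in tdT- CTL and 17031 to 22733 CPM in tdT- LPS libraries. In tdT+ libraries it was 18925 to 39088 CPM in CTL and 20004 to 26469 CPM under LPS, and the lowest CTL value came from mouse 174, which also had the lowest Nr4a1 level of the CTL libraries. The 13 immediate early genes alone summed to 31701 to 36483 CPM in tdT- CTL and 16893 to 22587 CPM in tdT- LPS libraries. The part of these genes in the Nr4a1 result was not tested.

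**Figure D3:**
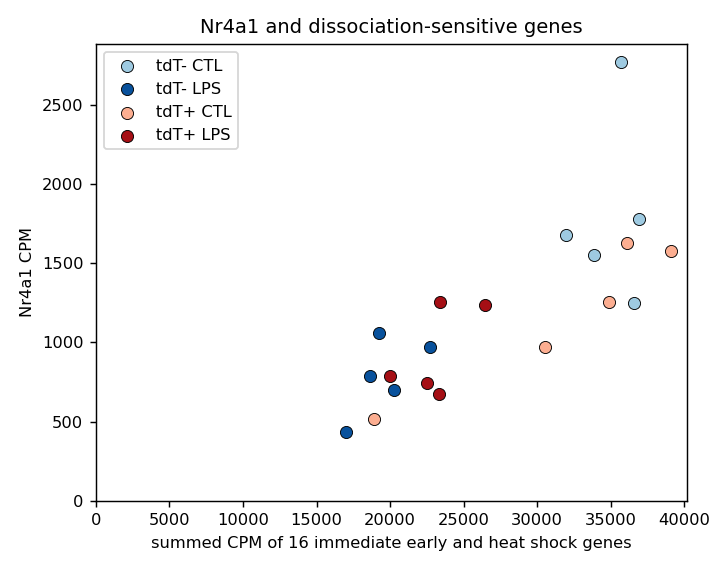
Nr4a1 level (CPM) against the summed level of 13 immediate early genes and 3 heat shock chaperones (CPM) in the 20 libraries, colored by group. The tdT- CTL libraries lie at upper right (1248 to 2765 CPM of Nr4a1), the LPS libraries at lower left (432 to 1252 CPM), and the tdT+ CTL library of mouse 174 (518 CPM) lies among the LPS libraries.

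The comparison of tdT+ with tdT- dCAMs asks whether these factors differ between cells with and without the label. In CTL mice 0 of the 9 factors passed the threshold, where 4.28% of all genes did, and in LPS mice 0 of 9, where 0.0301% of all genes did (edgeR). At an unadjusted p under 0.05 in edgeR, the count was 2 of 9 in CTL mice (Spi1 and Klf6), beside 3914 of 16632 genes. It was 0 of 9 in LPS mice, beside 899 of 16632 genes. No alternative, DESeq2 included, called any of the 9, where DESeq2 called 1644 of all genes in CTL and 60 in LPS mice. A difference in LPS effect between the populations was likewise called for 0 of the 9 factors and for 1.26% of all genes. For this difference 0 of the 9 were at an unadjusted p under 0.05 in edgeR, beside 2181 of 16632 genes. The median log2 difference of the 9 factors, tdT+ against tdT-, was 0.06 in CTL and 0.25 in LPS mice, beside -0.01 and 0.0 for all genes tested. For the 5823 genes at a mean log2 CPM of 4 or more it was -0.10 and 0.01.

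Klf6 was higher in the tdT+ than in the tdT- library of each of the 10 mice. In CTL mice the tdT+ libraries were at 879, 947, 1146, 1349 and 1047 CPM, beside 642, 838, 969, 871 and 828 CPM in the tdT- libraries of the same mice. In LPS mice they were at 893, 793, 1068, 849 and 1183 CPM, beside 709, 694, 904, 702 and 829 CPM. The log2 difference was 0.37 ± 0.15 in CTL (edgeR adjusted p = 0.156) and 0.32 ± 0.15 in LPS mice (edgeR adjusted p = 0.919). Over both treatments it was 0.35 ± 0.11 (edgeR adjusted p = 0.0987) without and 0.34 ± 0.08 (edgeR adjusted p = 0.314) with mouse as a replicate block, a contrast added after the signs had been seen, in which 2.04% of all genes passed without the block and 0 of the 9 factors did. Of all genes tested, 0.722% were higher in tdT+ in all 10 mice.

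Cebpa was also higher in the tdT+ library in 10 of 10 mice. The difference per mouse was large in mouse 179 (95.7 against 2.49 CPM) and small in mouse 175 (109 against 106 CPM). The log2 difference in CTL mice was 0.64 ± 0.53 (edgeR adjusted p = 0.528), and 0.33 ± 0.31 without the tdT- library of mouse 179 (edgeR adjusted p = 0.555). In LPS mice it was 0.58 ± 0.53 (edgeR adjusted p = 1.0). Tested within the 10 LPS libraries with the mouse as a replicate block, the difference was 0.57 ± 0.13 for Cebpa (edgeR adjusted p = 0.0918) and 0.31 ± 0.07 for Klf6 (edgeR adjusted p = 0.0968). Klf2 was higher in tdT+ in 5 of 5 LPS mice and in 3 of 5 CTL mice. A higher level in all 5 mice was seen for 5.85% of all genes in CTL and 5.19% in LPS mice, beside 2 factors in CTL (Cebpa and Klf6) and 3 in LPS mice (Cebpa, Klf2 and Klf6).

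**Figure D4:**
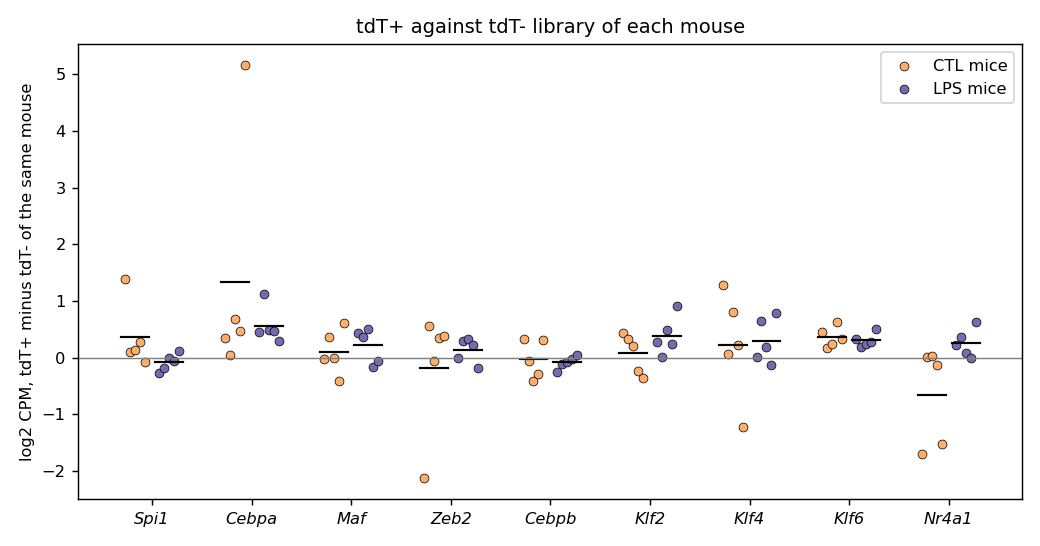
Difference in log2 CPM (prior count 2) between the tdT+ and the tdT- library of the same mouse for each factor; points are mice, bars the mean of 5, zero the gray line. All 10 points of Klf6 and of Cebpa lie above zero, while Nr4a1 has 2 CTL mice far below zero and Zeb2 has 1 (mouse 174).

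Nr4a1 differed between populations in some of the CTL mice. The tdT+ library was far lower in mice 174 (518 against 1678 CPM) and 179 (969 against 2765 CPM) and near the tdT- library in mice 175, 177 and 178. The log2 difference was -0.60 ± 0.29 (unadjusted p = 0.0524, edgeR adjusted p = 0.218) and -0.35 ± 0.32 without the tdT- CTL libraries of mice 174 and 179. Spi1 differed by 0.38 ± 0.17 in CTL mice (edgeR adjusted p = 0.195), where the tdT+ library was higher in 4 of 5 mice, and by -0.07 ± 0.17 in LPS mice (1 of 5). For Maf the log2 difference was 0.06 ± 0.24 in CTL and 0.22 ± 0.24 in LPS mice, and the 95% intervals, from -0.45 to 0.57 and from -0.29 to 0.72, lie within the fold threshold.

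The families of these factors were described from lists written by role. Of 59 other factors, 58 were tested. In tdT- dCAMs 2 of them were higher and 7 lower under LPS past the threshold, and in tdT+ dCAMs 1 was higher and 5 lower, with medians of -0.04 and -0.10 on the log2 scale. Of all genes, 7.2% were higher and 4.27% lower in tdT- dCAMs, and 3.37% and 2.52% in tdT+ dCAMs. With mouse as a replicate block by voom the calls were 15 and 10, beside 4523 and 1571 of all genes. Most of the calls came from the list of 23 other macrophage factors, where 1 rose and 4 fell in each population. Mef2c, a MADS-box factor of microglia and macrophages, fell from 347 ± 105 to 33.1 ± 5.62 CPM in tdT- (log2 fold change -3.39 ± 0.28, edgeR adjusted p = 4.0e-08) and from 517 ± 74.6 to 36.7 ± 12.9 CPM in tdT+ dCAMs (-3.81 ± 0.28, edgeR adjusted p = 8.9e-09). Lmo2, a LIM-domain cofactor of blood cell factors, fell in both as well (log2 fold changes -2.74 ± 0.35 and -2.703 ± 0.35). Hhex, a homeobox factor, likewise fell in both populations, Bhlhe41 in tdT- and Runx1 in tdT+ dCAMs. Id3, an inhibitor of basic helix-loop-helix factors, rose in tdT+ dCAMs from 56.3 ± 21.3 to 223 ± 59.9 CPM (log2 fold change 1.98 ± 0.50, edgeR adjusted p = 0.0169). Hhex, Bhlhe41, Runx1 and, in the next paragraph, Nr4a2 were named after their values were seen.

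Within the families of the 9 factors calls were few. In the MAF family Maff, a small MAF protein, fell in tdT- dCAMs from 47.8 ± 18.4 to 12.4 ± 5.86 CPM (log2 fold change -1.95 ± 0.56, edgeR adjusted p = 0.0255). In the KLF family 12 of 13 other factors were tested, and Klf10, a TGF-β-inducible factor, was the 1 called: it fell from 208 ± 151 to 85.9 ± 25.3 CPM in tdT- (-1.28 ± 0.37, edgeR adjusted p = 0.0279) and from 192 ± 61.8 to 77.2 ± 8.74 CPM in tdT+ dCAMs (-1.31 ± 0.37, edgeR adjusted p = 0.0372). Without the tdT- CTL library of mouse 174, the Klf10 change in tdT- dCAMs was -0.76 and missed the threshold. In the NR4A family Nr4a2 fell in tdT- dCAMs (-3.06 ± 0.82, edgeR adjusted p = 0.0160). Among the 12 other ETS factors Etv6, a repressor, rose in tdT- dCAMs from 16.3 ± 16.9 to 165 ± 21.1 CPM (3.34 ± 0.68, edgeR adjusted p = 0.00223). Its lowest tdT- CTL library was at 0.607 CPM, and the part of the lower gene detection in tdT- CTL libraries was not tested. Of the 5 other C/EBP factors and Zeb1, 0 passed in an LPS contrast in edgeR. In tdT- dCAMs 1 C/EBP factor and Zeb1 were at an unadjusted p under 0.05 in edgeR, beside 5015 of all 16632 genes. DESeq2 called 1 in each family there, beside 2843 of all genes.

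**Figure D5:**
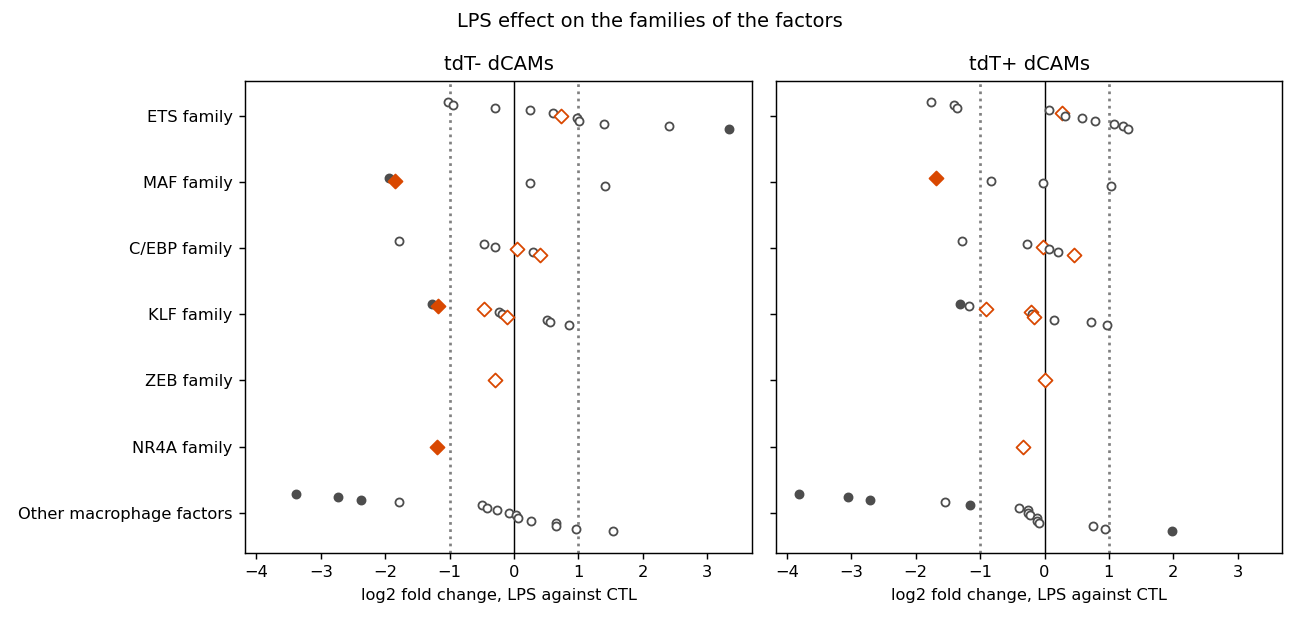
Log2 fold change under LPS in tdT- and tdT+ dCAMs for the 47 factors at a mean log2 CPM of 4 or more, by family; diamonds are the 9 factors, circles the 38 others, filled symbols passed the threshold and dotted lines mark a log2 fold change of 1 in size. Maf is the lowest MAF family factor plotted for tdT+ dCAMs, and Mef2c is the lowest of the other macrophage factors at -3.39 and -3.81.

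Between tdT+ and tdT- dCAMs of CTL mice, 3 of the 58 other factors were higher in tdT+ and 1 was lower, where 4.28% of all genes passed in either direction. The replicate block by voom called 7, beside 2245 of all genes, and a block within these 10 libraries 0, beside 3 of all genes. Etv6 was at 85.1 ± 39.8 CPM in tdT+ against 16.3 ± 16.9 CPM in tdT- libraries (log2 difference 2.38 ± 0.66, edgeR adjusted p = 0.0406), and Rxra, the shared partner of many nuclear receptors, at 101 ± 30.9 against 20.3 ± 13.5 CPM (2.32 ± 0.54, edgeR adjusted p = 0.0146). Bhlhe40, a repressor that supports macrophage proliferation, was lower, at 8.36 ± 7.54 against 193 ± 67.1 CPM (-4.53 ± 1.01, edgeR adjusted p = 0.0104). The remaining one, Nr1h3, had no count in the tdT- CTL libraries and averaged 6.81 CPM in the tdT+ CTL libraries. It was named after its values were seen. The lowest tdT- CTL library was at 0.607 CPM for Etv6 and 0.910 CPM for Rxra. The tdT- CTL libraries had 6671 to 9365 genes at 10 or more counts, fewer than all other libraries. They also carried more of the dendritic cell and monocyte markers than tdT+ CTL libraries. The part of detection and of cell makeup in these calls was not tested. In LPS mice 0 of the 58 were called in edgeR, against 1 with DESeq2, which called 60 of all genes. Of the 58, 5 were at an unadjusted p under 0.05 in edgeR, beside 899 of all 16632 genes.

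Genes known as targets of these factors moved in both directions. Of 15 listed, 6 rose and 2 fell under LPS in tdT- dCAMs, and 6 rose and 3 fell in tdT+ dCAMs, where the shares of all genes were 7.2% higher and 4.27% lower in tdT- and 3.37% and 2.52% in tdT+ dCAMs. Itgam, a PU.1 target that encodes CD11b, rose by 2.67 ± 0.20 in tdT- and 2.48 ± 0.20 in tdT+ dCAMs on the log2 scale (edgeR adjusted p = 1.4e-08 and 2.7e-08). Saa3, a C/EBPβ-dependent acute phase gene, went from at most 2.46 CPM in any CTL library to between 25496 and 43487 CPM in LPS libraries. C1qc, a complement gene driven by c-Maf, fell from 4855 ± 921 to 1658 ± 414 CPM in tdT- (-1.55 ± 0.19, edgeR adjusted p = 1.1e-05) and from 5794 ± 938 to 2021 ± 538 CPM in tdT+ dCAMs (-1.52 ± 0.19, edgeR adjusted p = 1.3e-05). C1qa fell by 1.32 ± 0.22 in tdT- and by 1.29 ± 0.22 in tdT+ dCAMs (edgeR adjusted p = 2.8e-04 and 4.0e-04). C1qb, named after its values were seen, was lower by less than the fold threshold. Its log2 fold change was -0.60 ± 0.16 in tdT- and -0.59 ± 0.16 in tdT+ dCAMs (edgeR adjusted p = 0.0167 and 0.0306). Csf1r, a PU.1 target, was higher in tdT+ than in tdT- libraries of CTL mice (5992 ± 309 against 2709 ± 818 CPM, log2 difference 1.15 ± 0.17, edgeR adjusted p = 4.6e-04). Under LPS it fell by 2.08 ± 0.18 in tdT+ dCAMs, while its log2 fold change of -0.99 ± 0.17 in tdT- dCAMs (edgeR adjusted p = 4.5e-04) was just under the fold threshold. Csf1r was the listed target with a called lower LPS effect in tdT+ than in tdT- dCAMs (-1.09 ± 0.24, edgeR adjusted p = 0.0234), a call that was lost when any of the LPS mice or mouse 174 was left out. The other target called for this difference, Saa3, was at or under 3 counts in all 5 tdT+ CTL libraries. Cd163 was also higher in tdT+ libraries of CTL mice (434 ± 164 against 153 ± 76.5 CPM, log2 difference 1.501 ± 0.38, edgeR adjusted p = 0.0237).

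The genes whose levels ran most like each factor over the 20 libraries, among 5814 genes at a mean log2 CPM of 4 or more, are given by Pearson's r as a description, since the libraries share treatment, mouse and depth. Nr4a1 was most like Btg2 (r = 0.894) and Junb (0.842), both immediate early genes, with r of 0.851 and 0.802 after group means were removed. Maf was most like Trim47 (0.959) and Lmo2 (0.953), values that fell to 0.607 and 0.608 within groups. Klf2 was most like Apoe (0.893 in all and 0.593 within groups) and Kctd2 (0.872 and 0.659), and Spi1 most like Lrp10 (0.883 and 0.624) and Xbp1 (0.879 and 0.642). Cebpa ran with Tex264 (0.951) and Rab11fip5 (0.949), Cebpb with Mydgf (0.866) and Slc3a2 (0.854), Klf4 with Srek1 (0.872) and Cnnm3 (0.830), Klf6 with Pmp22 (0.803) and Ccl24 (0.800) and Zeb2 with Zbtb1 (0.800) and Ss18 (0.758). For Cebpa both values rest in part on the library of mouse 179, in which it was near its floor.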

How the data were processed

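The authors deposited raw counts per gene, obtained per the labels with STAR 2.7.11a and featureCounts 2.0.6 from libraries of a low-input PCR kit without molecular identifiers or strand marking; the p-values and intervals of counts therefore carry amplification noise. Their methods name Gencode M36 but leave the genome build open, so coordinates and exon lengths were taken from GENCODE M21 (GRCm38) and only locate genes. Here, genes with a total count under 10 were removed, and 16632 genes in 20 libraries were fitted with 1 mean for each group, TMM scaling and edgeR's quasi-likelihood test (version 4.0.16, under R 4.3.3). Adjustment was Benjamini-Hochberg over all genes. The fit was first run on simulated counts of independent libraries. Those counts had less spread than these data (common biological coefficient of variation 1.13), so that run does not measure the error rate of the calls here. Groups came from the labels.

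The mouse number pairs tdT+ and tdT- libraries, since both were sorted from the same animal. Correlations of the pair's deviations from group means across genes were 0.228 to 0.449 in LPS and -0.0046 to 0.046 in CTL mice. Alternatives used DESeq2 1.42.0, limma 3.58.1, other scalings, filters and left-out libraries.

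The 9 factors, the lists and the tests were chosen with earlier results of these data known. Named genes are the 9 factors and, per list, up to 2 called genes per direction and LPS contrast with the smallest p at a mean log2 CPM of at least 4, any called gene between populations at that level, and the 2 genes most like each factor. 1 listed gene is not reported here.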

Additional observations from a re-analysis of the deposited data

Results flagged for a closer look

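Each of the 9 factors was checked in each of the 4 groups of 5 libraries for a library far from the others, by Dixon's ratio of the gap to the range of log2 CPM. This gave 4 such libraries in 36 groups, and chance alone flags about 1 group in 20. Cebpa was at 2.49 CPM in the tdT- CTL library of mouse 179 (ratio 0.834), which also held the fibroblast markers. Spi1 was at 619 CPM in the tdT+ CTL library of mouse 174 (0.762) and Zeb2 at 117 CPM in the same library (0.745), the library with the smallest total. Klf2 was at 271 CPM in the tdT+ CTL library of mouse 179 (0.733). All 4 belong to CTL mice. The populations differed in LPS effect past the threshold for 0 of the 9 factors in edgeR or DESeq2, beside 1.26% of all genes in edgeR. For this difference 0 of the 9 were at an unadjusted p under 0.05 in edgeR, beside 2181 of 16632 genes.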

How the results depend on the processing

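The changes of the 9 factors in the 5 contrasts were recomputed under each alternative, 1044 values in all, of which 4 lost a call, 1 gained one and 0 called values turned sign (56 values without a call did). Maf kept its calls, from -1.96 to -1.63 in tdT- and from -1.85 to -1.62 in tdT+ dCAMs, and Klf2 in tdT- dCAMs, from -1.38 to -1.01. The 4 lost calls are those of Nr4a1 in tdT- dCAMs: -1.02 with limma-voom quality weights, and -0.99, -0.99 and -0.97 without mouse 179, without its tdT- library and without the tdT- CTL libraries of mice 174 and 179. Leaving out 1 mouse gave 2 to 3 of the 9 called in tdT- and 1 to 2 in tdT+ dCAMs, where Klf2 joined Maf without mouse 179. Mouse as a replicate block changed no call among the 9 factors. Counts called among the 58 other factors moved more, and calls over all genes also moved. In tdT- dCAMs all-gene calls were 1197 higher and 710 lower in the main fit. They were 891 in the 10 libraries, 2843 with DESeq2 and 4523 with the replicate block by voom. In tdT+ dCAMs 560 higher and 419 lower became 1545 with DESeq2 and 3155 with quality weights. Between populations in CTL mice 712 became 1644 with DESeq2 and 7 in the 10 libraries. The cause was not tested. The counts that follow are those of the 58. In tdT- dCAMs, 9 became 5 in a fit of the 10 libraries compared, 14 with DESeq2 or without the tdT- CTL libraries of mice 174 and 179, 15 with the replicate block by voom, and 5 to 13 without 1 mouse (lowest without mouse 60 or 61). In tdT+ dCAMs, 6 became 11 with DESeq2, 24 with quality weights, 18 in the 10 libraries, 10 with the replicate block by voom, 10 without the tdT- CTL library of mouse 179, 12 without those of mice 174 and 179, and 3 to 9 without 1 mouse (lowest without mouse 54 or 61). For tdT+ against tdT- in CTL mice, 4 became 8 with DESeq2, 1 with quality weights, 0 in the 10 libraries, with or without the replicate block, 7 with the replicate block by voom and 9 without the tdT- CTL libraries of mice 174 and 179. In LPS mice, 0 became 1 with DESeq2, 3 with quality weights and 1 with the replicate block in the 10 libraries. For the difference of the LPS effects, 1 became 2 with DESeq2 or without the tdT- CTL library of mouse 174, 0 with quality weights, 4 with the replicate block or without the tdT- CTL libraries of mice 174 and 179, and 0 to 2 without 1 mouse (0 without any of the LPS mice or 174). Both voom fits moved the median log2 fold change of all genes under LPS in tdT- dCAMs from 0.02 to 0.68 (quality weights) and 0.76 (replicate block). Calls lost under some alternatives were those of Klf10 (10 of 23 in tdT-, 7 of 23 in tdT+), Maff (6 of 23), Id3 (3 of 23), Etv6, Cd163, Rxra and Bhlhe40 between populations (10, 6, 3 and 2 of 24) and Csf1r for the difference of LPS effects (8 of 22).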
